A study of Mus musculus with 6 samples.

Results

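The interleukin-1 family ligands and receptors examined here are 10 genes of the 23034 in the deposited table, taken by gene symbol: Il1a, Il1b, Il1rn, Il18, Il18bp, Il1r1, Il1r2, Il1rap, Il1rl1 and Il1rl2. They were measured by RNA sequencing in primary mouse bone marrow-derived macrophages, wild type in both groups. The growth factor M-CSF (10 ng/ml) was used to grow them from marrow, after which they were given IL-4 (20 ng/ml) for 24 hours to reach an alternatively activated (M2) state, reseeded, and treated for another 24 hours. The control group received PBS (3 libraries) and the other group received SA@BATMAN5 (3 libraries), an agent that the title of the series links to tuftsin clusters directed at Fc gamma receptors in infection after sepsis. The labels give no dose and do not say if IL-4 was still present during treatment. Nor do they say if the replicates were separate mice or wells, so p-values reflect library-to-library spread alone and that spread may be technical.

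Interleukin-1 alpha and beta are agonists that bind the receptor chain encoded by Il1r1, which then recruits the shared accessory chain encoded by Il1rap and signals through intracellular TIR domains and the adaptor MyD88. The family is built with its own brakes: Il1rn encodes a receptor antagonist, Il1r2 a decoy receptor without a signalling domain, and Il18bp a secreted protein that binds interleukin-18. Il1rl1 encodes ST2, the receptor for interleukin-33, in a membrane form and a shorter secreted form, and Il1rl2 encodes the receptor for the interleukin-36 cytokines. In macrophages the agonists are produced mainly after microbial or other danger signals, and the beta form and interleukin-18 are made as precursors that caspase-1 cleaves.

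The promoter windows of the 3 ligand genes that act on the receptor chain of Il1r1 are shown because the balance between these transcripts is what shifted most in the ratios given further on. Each window runs from 250 bases before to 50 bases after a start annotated by RefSeq, on build GRCm38.p6, a build other than the one named for the deposited data, and Il1rn is shown at 2 of its 3 annotated starts. Capitals mark matches, on either strand, to any of 5 motifs. For the factor NF-kappaB the letters searched were GGGNNNNNCC. For the factor STAT6, which acts downstream of IL-4, they were TTCNNNNGAA. For the factor AP-1 they were TGANTCA. The myeloid factor PU.1 was searched for with the letters GAGGAA. The box that positions the start of transcription was searched for as TATAAA.
Il1b (GRCm38.p6, chr2:129371090-129371389, minus strand): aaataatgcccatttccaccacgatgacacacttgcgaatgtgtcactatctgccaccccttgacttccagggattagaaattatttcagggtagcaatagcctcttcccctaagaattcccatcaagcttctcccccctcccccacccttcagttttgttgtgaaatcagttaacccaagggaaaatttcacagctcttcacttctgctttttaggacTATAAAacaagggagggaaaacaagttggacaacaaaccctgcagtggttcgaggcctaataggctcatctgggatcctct
Il1a (GRCm38.p6, chr2:129309923-129310222, minus strand): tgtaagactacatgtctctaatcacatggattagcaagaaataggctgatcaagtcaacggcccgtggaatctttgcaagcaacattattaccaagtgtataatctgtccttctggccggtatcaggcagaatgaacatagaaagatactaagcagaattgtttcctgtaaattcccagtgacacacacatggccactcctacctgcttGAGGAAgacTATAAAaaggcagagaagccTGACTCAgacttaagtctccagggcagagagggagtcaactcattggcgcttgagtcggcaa
Il1rn, upstream start (GRCm38.p6, chr2:24336610-24336909, plus strand): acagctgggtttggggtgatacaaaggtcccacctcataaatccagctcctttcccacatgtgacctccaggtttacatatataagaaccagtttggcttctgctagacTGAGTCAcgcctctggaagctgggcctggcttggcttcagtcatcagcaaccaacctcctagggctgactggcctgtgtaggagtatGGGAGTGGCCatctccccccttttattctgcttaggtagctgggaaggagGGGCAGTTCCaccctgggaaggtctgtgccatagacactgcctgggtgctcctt
Il1rn, downstream start (GRCm38.p6, chr2:24345121-24345420, plus strand): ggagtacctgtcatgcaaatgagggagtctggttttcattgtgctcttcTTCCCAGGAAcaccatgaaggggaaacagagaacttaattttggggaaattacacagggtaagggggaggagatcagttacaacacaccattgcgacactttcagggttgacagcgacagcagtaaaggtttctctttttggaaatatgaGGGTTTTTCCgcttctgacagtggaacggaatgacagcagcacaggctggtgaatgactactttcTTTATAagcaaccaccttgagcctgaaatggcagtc

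Both agonist windows hold TATAAA on the strand of the gene, starting 31 bases before the annotated start in Il1b and 32 bases before it in Il1a. A match between 25 and 35 bases before the start was found in 1.75% of all 32851 windows, and among the 14 windows of the 10 members it was found in those 2 alone. The Il1a window also holds TGACTCA 12 bases before the start, a match to the AP-1 motif that 7.81% of all windows carry. The Il1rn window at the upstream start holds another AP-1 match, TGAGTCA, 141 bases before the start. It also holds the NF-kappaB matches GGGAGTGGCC and GGGCAGTTCC, 54 and 4 bases before the start. The Il1rn window at the downstream start holds GGGTTTTTCC 51 bases and TTCCCAGGAA 201 bases before the start. The NF-kappaB motif as spelled here was present in 50.8% of all windows and the STAT6 motif in 6.95%. Of the 14 windows of the members, 5 held the NF-kappaB motif, 3 the STAT6 motif and 2 the AP-1 motif. These windows are not all separate: the Il1rn window not shown, chr2:24345041-24345340, overlaps the one at the downstream start. The same GGGTTTTTCC and TTCCCAGGAA lie in both and are counted in both, so the window counts exceed the number of distinct sites. These are matches of letters within 300 bases, and nothing about binding was measured.

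In the macrophage cultures the ligand genes Il1a, Il1b, Il1rn and Il18 and the gene of the binding protein, Il18bp, rose with SA@BATMAN5, while the receptor genes Il1rl1, Il1rap and Il1rl2 fell. Among the members tested, Il1b showed the largest rise, about 318-fold, and Il1rl1 the largest fall, about 6.41-fold. Il1r1 did not pass the test, and Il1r2 was close to absent in both groups. Levels are CPM, counts per 1000000 library counts with totals scaled by TMM, and folds are those fitted by edgeR's quasi-likelihood test with Benjamini-Hochberg adjustment over the 13474 genes that passed a filter on low counts. Of the 10 members 9 passed that filter, and 8 of these passed the adjusted threshold of 0.05. In the same fit 58.2% of all genes tested passed, 29.5% of them higher and 28.7% lower as shares of all genes tested, so a call alone is common in this comparison. Of the members, 5 rose and 1 fell by at least 2-fold, against 9.17% and 7.35% of all genes tested. With upper-quartile scaling 3239 genes were higher and 4791 lower, against 3980 and 3866 here, and the calls of the members kept their directions. CPM ranges of the groups did not overlap for 8 of the 9 members tested, against 64.1% of all genes tested. In bulk libraries, fewer cells of a type and less RNA per cell cannot be told apart.

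**Figure D1:**
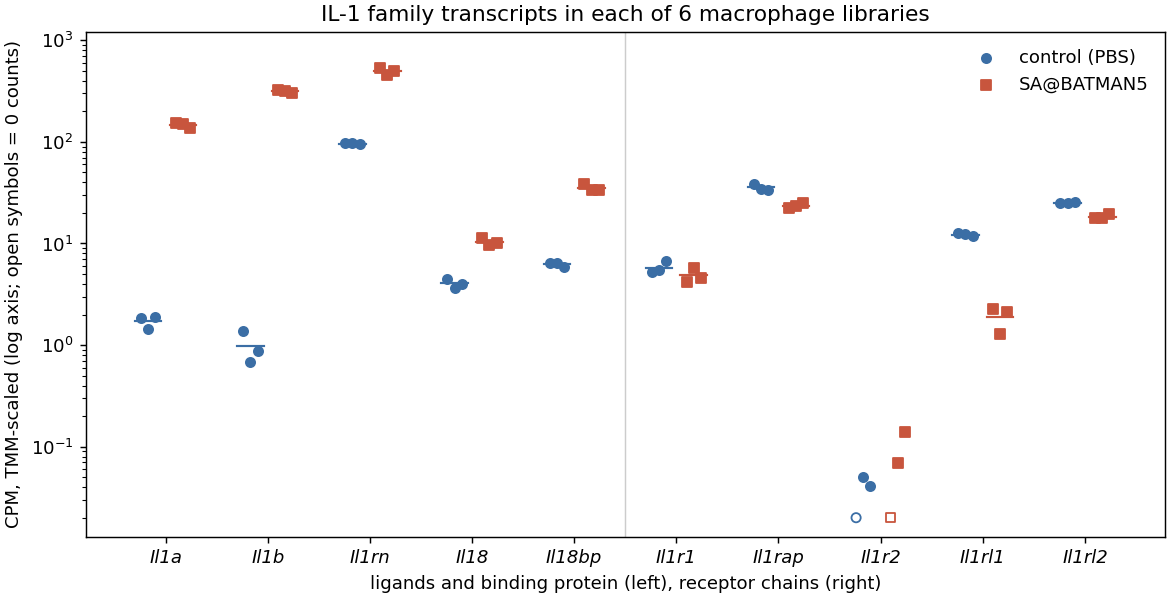
Each point is 1 library (n = 3 per group) and short lines are group means where no library was at 0; the vertical axis is CPM on a log scale. The ligand and binding protein genes on the left lie higher with SA@BATMAN5, and on the right Il1rl1 drops from about 12.2 to 1.88 CPM while Il1r1 overlaps.

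Library totals were 38740103 to 47018154 counts in controls and 29739263 to 37212125 with SA@BATMAN5, so the groups differed in depth, and 3 counts corresponded to 0.0619 to 0.103 CPM. All 8 macrophage markers listed were present, with summed levels of 16308 to 16497 CPM in controls and 22840 to 23018 CPM with SA@BATMAN5. Lyz2 made up most of these sums, 6 of the 8 passed higher, and Cd68 (from 1506 to 1272 CPM) and Itgam (from 2281 to 1706 CPM) passed lower. Among other cell types that use these genes, the neutrophil markers Ly6g, Mpo, Ctsg and Retnlg had 0 counts in all libraries. The summed level of that 9-gene list was 9.80 to 10.0 CPM in controls and 61.3 to 71.4 CPM with SA@BATMAN5, mostly S100a8. Of the 4 neutrophil markers tested, S100a8, S100a9 and Ngp passed higher. Cxcr2 passed lower, from 1.40 to 0.179 CPM (adjusted p 0.00116, edgeR). Of 9 mast cell and basophil markers, 4 (Tpsb2, Mcpt4, Fcer1a and Prss34) had 0 counts throughout, and the list summed to 1.18 to 2.17 and 1.10 to 1.63 CPM. Stromal transcripts were present, with 7 of 8 markers detected, Lum at 0, and sums of 912 to 1114 and 1257 to 1450 CPM. Of 7 dendritic cell markers, Flt3, Cd209a and Siglech had 0 counts, and the list summed to 4.74 to 5.12 and 6.63 to 7.57 CPM. The higher sum came from Ccr7, which went from 0.0894 to 3.27 CPM, while Zbtb46, Xcr1 and Clec9a had lower means with SA@BATMAN5 and did not pass. Of 7 T cell, NK cell and innate lymphoid markers found, Cd3e, Cd3d, Cd3g and Ncr1 had 0 counts, and the sum of 380 to 404 against 122 to 132 CPM was nearly all Il7r. The part of other cell types in the levels of the members was not tested.

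Il1b, which encodes the secreted agonist that needs cleavage, had 64, 27 and 42 counts in the control libraries, or 1.37, 0.676 and 0.867 CPM. With SA@BATMAN5 it reached 324, 315 and 301 CPM in replicates 1, 2 and 3. Control replicate 1 held the highest of the low values, and the groups were far apart. The log2 fold change was 8.31 ± 0.15 (SE, adjusted p 8.14e-17, edgeR), the 29th largest rise among all genes tested. Il1a, whose product acts without cleavage and can stay on or in the cell, went from 1.84, 1.45 and 1.90 CPM to 153, 151 and 137 CPM. Its groups did not overlap either, and its log2 fold change was 6.40 ± 0.10 (adjusted p 1.17e-16, edgeR), the 84th largest rise. The 2 agonist genes are adjacent protein-coding genes on chromosome 2 in the RefSeq gene order.

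Il1rn, the receptor antagonist gene, started from a far higher level. Control libraries held 98.0, 96.7 and 94.4 CPM and SA@BATMAN5 libraries 539, 458 and 498 CPM. The treated libraries spread more than the controls but all stood well above them. The fold was 5.17 (log2 2.37 ± 0.05, adjusted p 3.29e-14, edgeR).

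Scaled for length, the ligand genes changed order. FPKM values (fragments scaled by transcript length and by the library total), made by the authors, allow levels of different genes to be set side by side. In controls Il1rn had the highest FPKM of the 10 members, 37.5 ± 1.22 (SD, n = 3), and Il1a and Il1b, at 0.741 ± 0.106 and 0.607 ± 0.222, stood in places 8 and 9 with overlapping ranges. With SA@BATMAN5, Il1b at 187 ± 7.85 FPKM and Il1rn at 184 ± 15.4 FPKM shared the top with overlapping ranges, followed by Il1a at 60.3 ± 4.15 FPKM.

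The FPKM of Il1rn was 45.7, 90.3 and 64.9 times that of Il1b in control replicates 1, 2 and 3, and 1.04, 0.882 and 1.04 times that of Il1b with SA@BATMAN5. The antagonist transcript thus went from a large excess over Il1b to about the same level. On the log2 scale the ratio fell by 6.04, and against Il1a and Il1b together it fell by 5.25. Il1a to Il1b went from 0.933, 1.51 and 1.45 to 0.323, 0.330 and 0.311, so that Il1b outweighed Il1a in each SA@BATMAN5 library and in 1 of 3 control libraries. Groups did not overlap in any of the 4 ratios compared, and each exact two-sided permutation test gave p = 0.1 (adjusted p 0.1), which is the smallest that 3 against 3 libraries allow. As a share of the summed FPKM of the 3 genes, Il1rn made up 96.5% ± 0.692 in controls and 42.6% ± 2.40 with SA@BATMAN5.

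**Figure D2:**
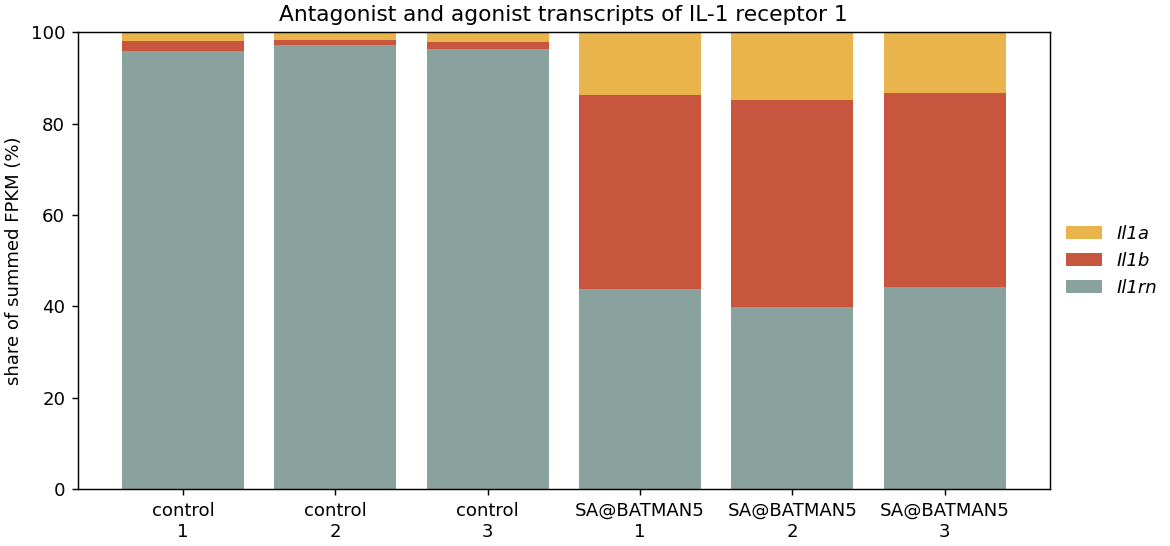
Stacked bars give, for each library, the percentage of the summed FPKM of Il1rn, Il1b and Il1a that each gene takes. Il1rn takes 95.9% to 97.3% in the control libraries and 39.9% to 44.2% in the SA@BATMAN5 libraries, where Il1b takes 42.4% to 45.2%.

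Interleukin-18 and its inhibitor rose together. Il18 went from 4.50, 3.66 and 3.98 CPM to 11.3, 9.57 and 10.2 CPM, and no treated library came near the controls. Its fold was 2.55 (log2 1.35 ± 0.12, adjusted p 3.28e-07, edgeR). Il18bp, the gene of the soluble protein that holds interleukin-18 away from its receptor, went from 6.47, 6.41 and 5.84 CPM to 38.3, 33.8 and 33.8 CPM. Its fold was 5.66 (log2 2.50 ± 0.08, adjusted p 2.65e-12, edgeR), with groups well separated. The FPKM ratio of Il18bp to Il18 was below 1 in every control library (0.703, 0.802 and 0.690) and above 1 in every SA@BATMAN5 library (1.82, 1.51 and 1.45). The shift of this inhibitor-to-ligand ratio therefore ran in the opposite direction to that of Il1rn to Il1b, with a log2 change of 1.12 (exact permutation p = 0.1, the smallest possible).

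Among the receptor chains, Il1rl1 (ST2) fell most. Its control libraries held 12.6, 12.4 and 11.8 CPM, and SA@BATMAN5 libraries 2.25, 1.27 and 2.13 CPM, from 81, 37 and 77 counts. Replicate 2 was the lowest of the treated libraries, and all 3 were far below the controls. The log2 fold change was -2.68 ± 0.17 (adjusted p 3.81e-09, edgeR), the 147th largest fall of all genes tested. Among cells other than macrophages, mast cells, basophils, innate lymphoid cells and some T cells are known to carry ST2. The summed mast cell and basophil markers overlapped between the groups. The summed T cell, NK cell and innate lymphoid markers were lower with SA@BATMAN5, at 122 to 132 against 380 to 404 CPM. That sum was nearly all Il7r (adjusted p 8.72e-14, edgeR), with Cd3e, Cd3d, Cd3g and Ncr1 at 0 counts. Gata3 had 11, 0 and 0 counts in controls and 5, 8 and 7 with SA@BATMAN5 and was not tested. The part of these cells in the level of Il1rl1 was not tested.

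Il1rap, the accessory chain used by the receptors for interleukin-1, interleukin-33 and interleukin-36, went from 38.8, 34.1 and 33.8 CPM to 22.1, 23.2 and 25.2 CPM. The fall was modest, log2 -0.60 ± 0.07 (adjusted p 4.78e-06, edgeR), with no overlap between groups. Il1rl2, the interleukin-36 receptor, went from 25.1, 25.2 and 25.5 CPM to 17.8, 17.8 and 19.4 CPM. Control libraries lay within a narrow band and all treated libraries below it (log2 -0.46 ± 0.06, adjusted p 2.43e-05, edgeR). In the authors' deposited table the log2 fold changes of Il1rap and Il1rl2 were -0.60 and -0.46.

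Il1r1, the signalling receptor for both agonists, held 5.19, 5.46 and 6.71 CPM in controls and 4.22, 5.78 and 4.58 CPM with SA@BATMAN5. Replicate 2 of the treated group lay above 2 control libraries, and the gene did not pass (log2 -0.26 ± 0.15, adjusted p 0.174, edgeR). The authors' deposited table gave a log2 fold change of -0.25 and an unadjusted p of 0.142. Without SA@BATMAN5 replicate 2 the adjusted p was 0.0487 (edgeR). Leaving out each of the other libraries in turn gave adjusted p from 0.123 to 0.515 (edgeR), the highest without control replicate 3 (log2 -0.14). The FPKM values of the same gene did separate, at 1.13, 1.02 and 1.27 against 0.619, 0.813 and 0.630. In limma on log2(FPKM + 1) the log2 difference was -0.34 (adjusted p 0.00305). A pseudocount of 1 shrinks differences at such low FPKM, and on log2(FPKM + 0.1) the log2 difference was -0.66 (adjusted p 0.00497, limma). Stromal cells also carry this receptor, and stromal marker transcripts were present at the sums given above, higher with SA@BATMAN5; their part in the level of Il1r1 was not tested.

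Counts divided by FPKM reflect the length by which a gene's reads were scaled, if both used the same assignment of reads. The sources used here do not say if they did. This ratio was looked at after the disagreement was seen. Relative to the median gene of each library it was 1.35, 1.56 and 1.54 for Il1r1 in controls and 1.89, 2.00 and 2.00 with SA@BATMAN5, so the groups did not overlap. The log2 difference was 0.41 ± 0.07, which did not pass over the 12400 genes measured this way (limma, unadjusted p 0.00210, adjusted p 0.190), where 0.29% of genes passed. For Il1rl1 the same quantity was 1.55, 1.52 and 1.57 in controls and 1.13, 1.84 and 1.04 with SA@BATMAN5. Its treated libraries lay on both sides of the controls (adjusted p 0.723, limma). Protein-coding transcripts of Il1r1 in GENCODE vM21 have 5819 and 4832 bases. Those of Il1rl1 have 5302, 5053, 2661, 1216 and 375 bases. Which transcripts were present was not measured here.

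**Figure D3:**
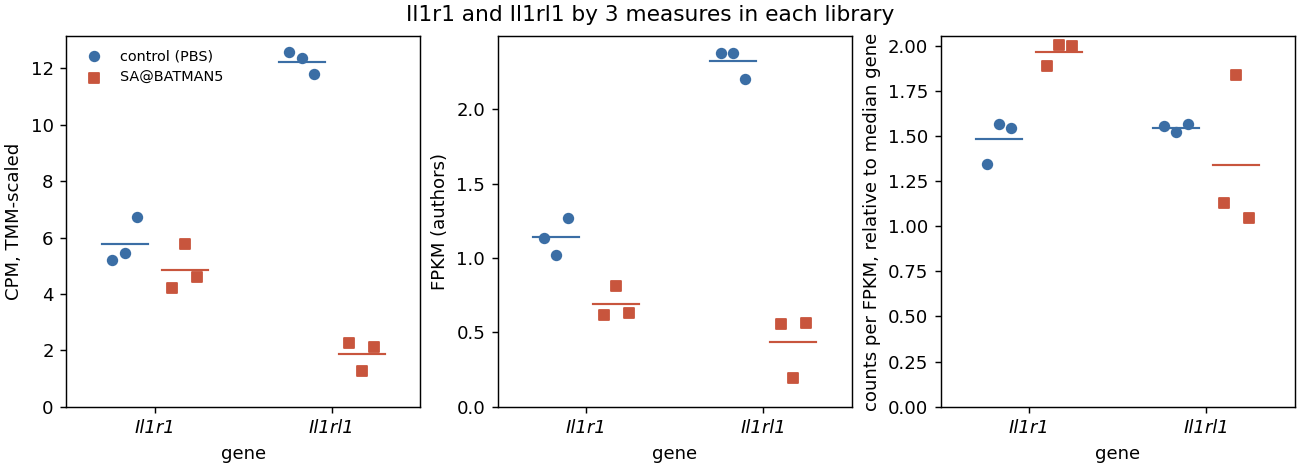
Panels show, for Il1r1 and Il1rl1 in each library, CPM, the authors' FPKM, and counts per FPKM relative to the median gene; lines are means of n = 3. Il1r1 overlaps between groups in CPM and not in FPKM, and Il1rl1 is lower with SA@BATMAN5 in both.

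Il1r2, the decoy receptor, had 0, 2 and 2 counts in controls and 0, 2 and 5 counts with SA@BATMAN5. It was too low to be tested, and a difference was not detectable at this depth. Its ratio to Il1r1 was not computed.

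In the RefSeq gene order Il1r2, Il1r1, Il1rl2, Il1rl1, Il18r1 and Il18rap are consecutive protein-coding genes on chromosome 1. Of the 4 genes of this run that could be tested, Il1rl2, Il1rl1 and Il18rap fell and Il1r1 did not pass, where 28.7% of all genes tested fell, and nothing particular to the run is read from that count. The others, Il1r2 and Il18r1 (a chain of the interleukin-18 receptor), were too low to test. Il18r1 had 5, 2 and 2 counts in controls and 2, 2 and 0 with SA@BATMAN5. Il18rap, the accessory chain of that receptor, went from 51, 93 and 79 counts to 23, 19 and 17 counts, or from 1.68 ± 0.622 to 0.588 ± 0.103 CPM (log2 -1.51 ± 0.34, adjusted p 0.00167, edgeR). Genes of both chains of the interleukin-18 receptor were thus at low levels in both groups.

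**Figure D4:**
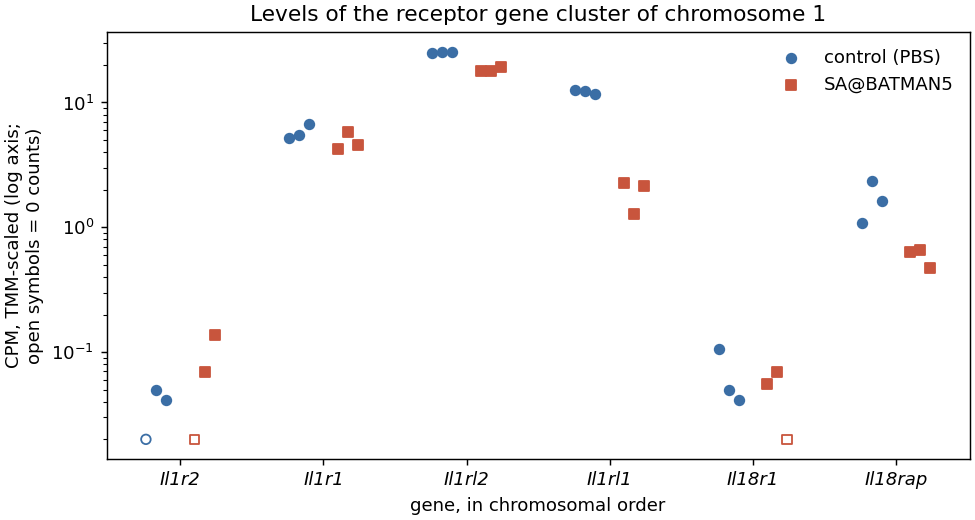
Points are single libraries (n = 3 per group) for 6 neighbouring receptor genes in chromosomal order, on a log CPM axis, with open symbols for 0 counts. Il1rl2, Il1rl1 and Il18rap lie lower with SA@BATMAN5, and Il1r2 and Il18r1 lie near the detection floor.

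The rest of the family was read from a list of 11 ligand and receptor genes, Il18r1 and Il18rap among them. Of these 4 passed the filter on low counts, and 2 rose and 2 fell, where 29.5% of all genes tested rose and 28.7% fell. Il36g, an agonist of the interleukin-36 receptor, went from 0.605 ± 0.168 to 38.7 ± 4.04 CPM (n = 3, log2 6.00 ± 0.19, adjusted p 1.15e-13, edgeR), the 99th largest rise, while the gene of its receptor, Il1rl2, fell. Il36a, a second agonist, had 0 counts in all control libraries and 30, 23 and 31 counts with SA@BATMAN5. With 3 counts over the control group taken as the floor, it was at least 37.4-fold higher (adjusted p 7.76e-06, edgeR). It passed the filter on low counts only through the SA@BATMAN5 libraries, so that it was tested at all, and counted among the 2 that rose, depended on its level there. Il36b, the antagonist gene Il36rn, Il1f10, Il1rapl1 and Il1rapl2 had 0 counts in all libraries, which allows up to 3 counts over each group. Il33, the ligand of ST2, had 0, 0 and 6 counts in controls and 0, 4 and 9 with SA@BATMAN5 and was not tested. Sigirr, a receptor that dampens signalling of the family, went from 0.748 ± 0.0440 to 0.360 ± 0.122 CPM (adjusted p 0.0330, edgeR). Its call was lost in 9 of the 16 alternatives that gave a value, with adjusted p up to 0.109.

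Genes that relay the signal from the TIR domain changed mostly by less than 2-fold, as did most genes tested. By at least 2-fold, 2 of the 19 rose and 0 fell, against 9.17% and 7.35% of all genes tested. Of 19 such genes 11 rose, 2 fell and 6 did not pass, so that 68.4% were called, against 58.2% of all genes tested. Their median log2 fold change was 0.15, and that of all genes tested was -0.0041. With library totals alone, or with upper-quartile scaling, 9 rose and 5 fell. The largest rise was that of Irak3, also called IRAK-M, a brake on MyD88 signalling, from 15.9 ± 2.06 to 176 ± 4.62 CPM (log2 3.47 ± 0.07, adjusted p 1.30e-14, edgeR). Peli1, a ubiquitin ligase that acts on IRAK proteins, rose from 26.4 ± 0.448 to 57.0 ± 1.67 CPM (log2 1.11 ± 0.05). Myd88 itself rose by less, log2 0.77 ± 0.05, and Tollip, an adaptor that restrains IRAK-1, fell by 0.69 on the log2 scale (SE 0.04). The genes that did not pass were Irak4, Map3k7, Tab3, Peli2, Ube2n and Chuk.

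Genes of maturation and release were read in the same way. Of 17 genes 12 rose, 4 fell and 1 (Gsdme) did not pass, so that 94.1% were called, against 58.2% of all genes tested. Of all genes tested 29.5% rose and 28.7% fell. By at least 2-fold, 8 of the 17 rose and 1 fell, against 9.17% and 7.35% of all genes tested. Their median log2 fold change was 0.73, and that of all genes tested was -0.0041. With library totals alone, or with upper-quartile scaling, 10 rose and 4 fell. Casp1, the protease that cleaves the precursors of interleukin-1 beta and interleukin-18, rose from 82.6 ± 2.05 to 249 ± 2.92 CPM (log2 1.59 ± 0.03, adjusted p 3.72e-14, edgeR). Nlrp3, the sensor of an inflammasome that activates this protease, rose from 13.5 ± 0.933 to 85.2 ± 4.43 CPM (log2 2.66 ± 0.06). Mefv (pyrin, another inflammasome sensor) rose by 3.55 on the log2 scale and Nlrc4, a sensor used against bacterial flagellin, by 1.45. Casp4, which encodes the protease that senses intracellular lipopolysaccharide, rose by 1.72, and Panx1, a membrane channel that releases ATP, by 1.46. The pore-forming gasdermin D gene Gsdmd rose by 1.17 and Ninj1, which ruptures the membrane of dying cells, by 1.09. Nlrp1b fell by 1.52 on the log2 scale (SE 0.13), the only fall of at least 2-fold in this list, and Pycard, the inflammasome adaptor ASC, fell by 0.30 (SE 0.05). Capn2 fell by 0.79 and encodes a calpain subunit; calpains cleave the precursor of interleukin-1 alpha. Capn1, another calpain gene of the list, passed in the other direction (log2 0.18, adjusted p 0.00104, edgeR). Reads of Nlrp1b may be divided among close paralogs in ways that depend on the counting tool.

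**Figure D5:**
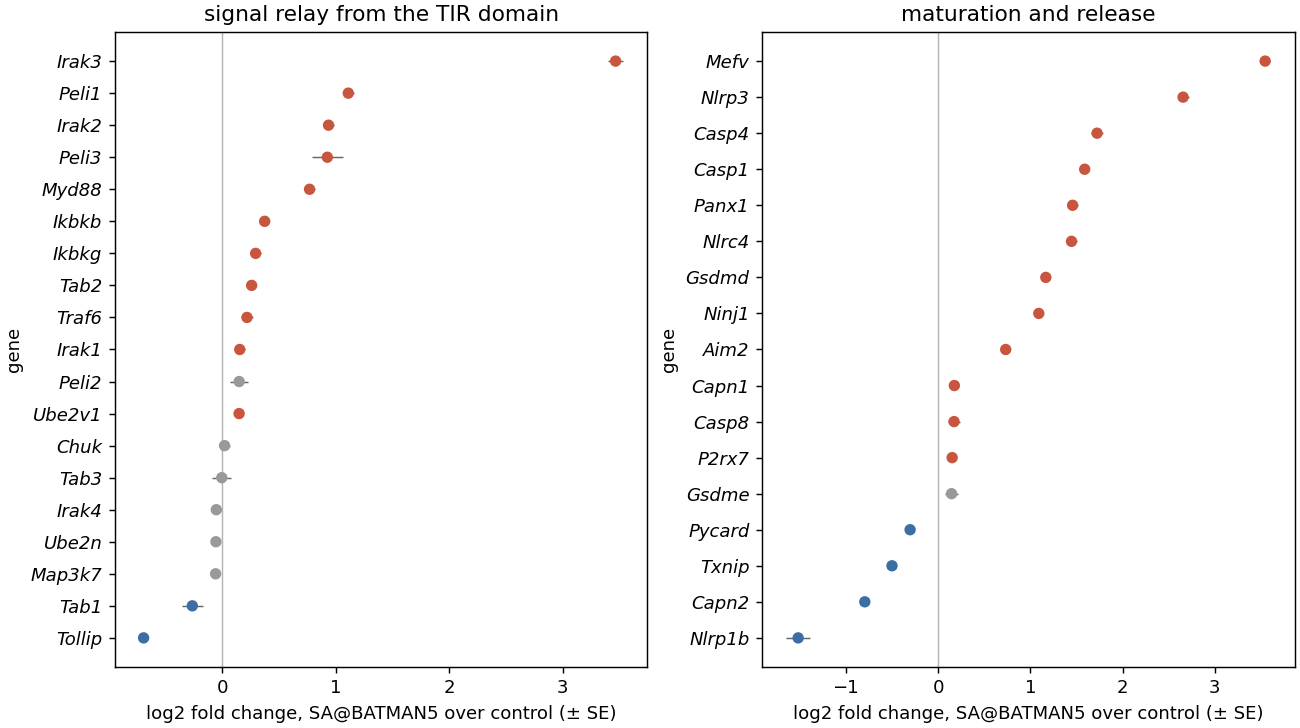
Points are log2 fold changes (SA@BATMAN5 over control) with SE bars for 19 relay genes (left) and 17 maturation and release genes (right); red passed the adjusted threshold higher, blue passed it lower, grey did not pass. Irak3 stands apart on the left at 3.47, and Mefv and Nlrp3 lead on the right at 3.55 and 2.66.

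Likeness was measured as the Euclidean distance of log2 CPM over the 6 libraries. Genes were not centred, so the distance reflects level in each group as well as change. The CPM values below are those by which the genes were picked. The 3 genes nearest to Il1b were the interferon-inducible genes Gbp5 and Ifit3 and the siderophore-binding lipocalin gene Lcn2, at distances of 1.97, 2.07 and 2.26. They went from 1.59, 1.52 and 0.632 CPM to 188, 544 and 154 CPM. The 3 nearest to Il1rn were Ctsc (cathepsin C), Abcc5 (an ABC transporter) and Bst2 (tetherin), at distances of 0.563, 0.702 and 0.720. They went from 103, 118 and 77.5 CPM to 406, 420 and 596 CPM.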

How the data were processed

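RNA sequencing was analysed from 1 table of the whole series. Per the file headers, it contains whole-number counts for each gene, the authors' FPKM, and the log2 fold changes and p-values of the authors' DESeq2 comparison, with a dash for untested genes. GRCm39 is the build, and StringTie 2.1.2, HISAT2 2.2.0 and DESeq2 1.26.0 the tools, named in the submitters' processing notes. Not given in the sources used here are the annotation, the counting tool and its strand setting. Columns marked S-5 were read as SA@BATMAN5 and those marked N as the controls, which is a reading of names. Counts were filtered (filterByExpr, minimum count 10, total 15), TMM-scaled and put through the two-sided quasi-likelihood test of edgeR 4.0.16 (R 4.3.3), with group the only term. Standard errors came from the fitted weights. The procedure was tested on simulated data. Counts per FPKM, log2(FPKM + 1) and log2(FPKM + 0.1) were tested with limma 3.58.1. Alternatives were other scalings and filters, DESeq2 1.42.0, limma-voom, thinning to the shallowest library, FPKM with pseudocounts of 1 and 0.1, a replicate block, and each library left out. Within groups, pairs of libraries exceeded sampling noise, with a chi-square of 4.66 to 8.10 for each degree of freedom. The text names all 10 members, and genes of the 3 pathway lists past the threshold by at least 2-fold or at 0 counts. It also names the genes nearest in level to Il1b and Il1rn. Other list genes were named after their values were seen. Members and lists were chosen with earlier results of these data known. Floors cover counting error only. Figures used matplotlib 3.10.9.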

Additional observations from a re-analysis of the deposited data

How the results depend on the processing

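All 8 members called kept their direction and their call under each of the 17 alternatives, the replicate block among them, and Il1r1 was the exception among members tested, with a call in 3 of 17. Those were log2(FPKM + 1), log2(FPKM + 0.1) and leaving out SA@BATMAN5 replicate 2 (adjusted p 0.00305, 0.00497 and 0.0487), so 9 members were called there. The cause was not tested. The log2 fold change of Il1b ranged from 6.88 to 8.64, that of Il1a from 5.14 to 6.46, and that of Il1rl1 from -2.82 to -1.22, the smallest sizes coming from log2(FPKM + 1), where the pseudocount shrinks low levels. Of the other family genes 2 were called with a filter of 1 CPM in 3 libraries, against 4 as reported, since Il36a and Sigirr did not pass that filter. All genes called numbered 7328 to 8030 across alternatives, against 7846. Over all genes tested, same-numbered libraries did not deviate together (correlations -0.0028 to 0.0124). Such low correlations cannot show that they had no mouse or batch in common, and the labels do not say. With the replicate block 7746 genes and 8 members were called. Ratios kept their direction from counts, with 0.1 FPKM added and without each library. Depth limits what can be said of Il1r2, Il18r1 and Il33, which had at most 9 counts in a library.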
